A study of Bos taurus with 5 samples.

Results

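Loci with a lower transcript level in every crossbred library than in either purebred library were examined in blood leukocytes of cattle. A locus was a member when the lower of the 2 purebred values exceeded the highest of the 3 crossbred values by at least 1.5-fold on the log2(FPKM + 1) scale. FPKM, a fragment number divided by transcript length and by the mapped total of the library, is a level per length, and it was summed over the transcripts of each assembled locus. The rule gave 196 members among 13871 loci kept for a mean level of 1 FPKM or more (1.41 percent), out of 31898 assembled loci. The members were thus chosen by the levels in all 5 libraries, so the margin, here called the gap, is given as a description without a test.

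The series holds 5 RNA sequencing libraries, 1 for each population. N and H were the purebred populations, and the labels do not spell out these letters. The crosses were between Holstein and native cattle of Iran: 50CSN and 50CSH were reciprocal crosses with 50 percent of each breed, the sire being native in 50CSN and Holstein in 50CSH, and in 75C the shares were 75 percent Holstein and 25 percent native. The labels name no treatment and no age. Whether a library stands for 1 animal or a pool, and whether the purebred animals were parents of the crossbred ones, is not in the labels. With 1 library per population there is no replicate error, and a difference between animals cannot be told apart from a difference between populations. In bulk RNA, fewer cells of a type and less RNA per cell cannot be told apart either.

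Blood leukocytes are a mixture of lymphocytes, monocytes and granulocytes, and bulk RNA from them averages over these types. When the parental alleles act additively, a cross is expected to lie between its parents. A level under both parents is called transgressive or underdominant, and such departures are studied in connection with heterosis, the superiority of crosses in some traits. None of the 31460 deposited Ensembl transcript IDs could be paired with a gene symbol, so the members are identified by ID and position as deposited. For the same reason the leukocyte label could not be checked against marker genes. Where a locus holds several Ensembl IDs, it is named by the first in sorted order. That ID need not belong to the transcript with most of the level. The labels and headers used here name no genome build, and positions are therefore tied to no build.

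Levels below both purebreds reached the 1.5-fold margin more often than levels above both. Every crossbred was below both purebreds by any margin at 3092 loci (22.3 percent) and above both at 2914 loci (21 percent). At 1.5-fold the numbers were 196 below and 44 above, the latter 0.317 percent of the kept loci. At 2-fold they were 40 below and 4 above. After quantile normalization of the libraries the split at 1.5-fold was 175 below and 45 above, and 166 of the 196 members stayed in the set. The median log2 difference of the crossbred mean from the purebred mean was -1.13 over the members and -0.01 over all kept loci. The member value is fixed in sign by the rule.

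**Figure D1:**
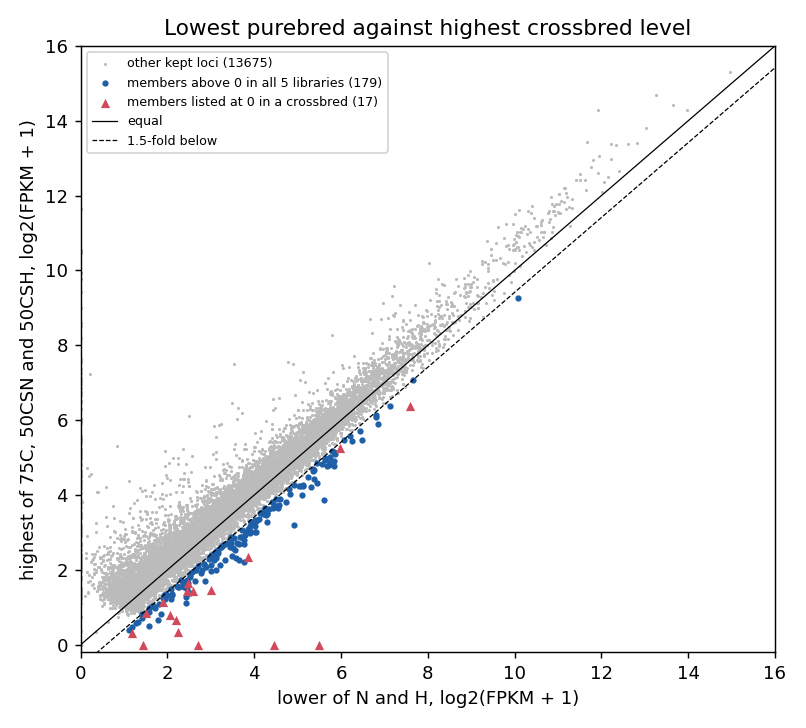
Each point is 1 kept locus, with the lower of N and H on the horizontal axis and the highest of 75C, 50CSN and 50CSH on the vertical axis, both in log2(FPKM + 1). The 196 members lie on or below the dashed line, and the 17 listed at 0 in a crossbred (triangles) include 4 on the floor of the plot.

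Most members were annotated loci of low or moderate level. An Ensembl ID was present at 161 of the 196 members (82.1 percent), against 84.1 percent of all kept loci and 23 of the 44 loci on the upper side. The members had a median of 3 transcripts and 55 had a single transcript. Of the 35 members without an Ensembl ID, 31 had a single transcript, and their spans ran from 134 to 264259 nt with a median of 1525 nt. The median level over the members was 11.2 (N), 11.7 (H), 4.69 (75C), 3.79 (50CSN) and 3.36 FPKM (50CSH). Over all kept loci the corresponding medians lay between 10.3 and 10.9 FPKM. The share of loci that were members was 1.40 percent at a mean of 1 to 2 FPKM, 1.97 percent at 2 to 5 and 1.87 percent at 5 to 10. It was 0.454 percent at 100 FPKM or more, where 4 of 882 loci were members. The 1 added to FPKM narrows gaps most at low levels, and these shares were taken with it. On the upper side 13 of the 44 loci had a mean of at least 100 FPKM. Together the members held 0.804 percent of the summed FPKM of library N and 0.803 percent of that of H, against 0.301 (75C), 0.271 (50CSN) and 0.248 (50CSH) percent.

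The largest gap among the members above 0 in all 5 libraries belonged to a short locus without an Ensembl ID on chromosome 29, from 47000251 to 47000419, named after its values were seen. It stood at 47.5 (N) and 48.2 (H), against 9.70 (75C), 9.13 (50CSN) and 13.6 FPKM (50CSH). Among such members with an Ensembl ID the largest was the locus of ENSBTAT00000022604 on chromosome 18, from 57090258 to 57143002, with a log2 gap of 1.71. Its levels were 31 (N) and 29.2 FPKM (H), and 6.38 to 8.25 FPKM in the crossbreds. At both loci the purebreds were close to each other and far from all crossbreds.

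Among annotated members above 0 in every library, which leaves out the larger gaps of members listed at 0, the 12 with the largest gaps had log2 gaps from 1.08 to 1.71 and means from 1.17 to 27.2 FPKM. On chromosome 7, from 4202518 to 4219070, the locus of ENSBTAT00000001076 was at 11.96 (N), 11.46 (H), 3.76 (75C), 3.60 (50CSN) and 2.67 FPKM (50CSH). On unplaced sequence Un.004.1339, from 6518 to 26580, the locus of ENSBTAT00000026048 was at 11.7 (N), 11.0 (H), 3.02 (75C), 4.01 (50CSN) and 3.48 FPKM (50CSH). On chromosome 5, from 21811391 to 21816577, the locus of ENSBTAT00000006022 was at 35.0 (N) and 33.4 (H), against 15.0 (75C), 14.5 (50CSN) and 12.5 FPKM (50CSH). At the chromosome 7 locus, which shared its span, the span sums were 18.7 (N), 18.4 (H), 11.1 (75C), 10.4 (50CSN) and 8.85 FPKM (50CSH), and the log2 gap was 0.68 in place of 1.39. At the locus level these 3 showed N and H nearly level and the crossbreds near each other, while the rule itself keeps purebreds and crossbreds apart. The locus of ENSBTAT00000003631 on chromosome 7, from 60787807 to 60980065, had a wider spread among the crosses, from 19.0 FPKM (75C) to 15.3 (50CSN) and 9.40 FPKM (50CSH), under 49.6 (N) and 42.6 FPKM (H). This locus held 5 Ensembl IDs, and 85.9 percent of its fall lay in a transcript of another ID, ENSBTAT00000016977. That transcript was at 40.6 (N), 37.1 (H), 19.0 (75C), 9.15 (50CSN) and 6.96 FPKM (50CSH). At ENSBTAT00000012702 on chromosome 18, from 34744264 to 34755512, the purebreds differed more, at 4.72 (N) and 9.26 FPKM (H). There the crossbreds lay at 1.60 (75C), 0.661 (50CSN) and 1.27 FPKM (50CSH).

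**Figure D2:**
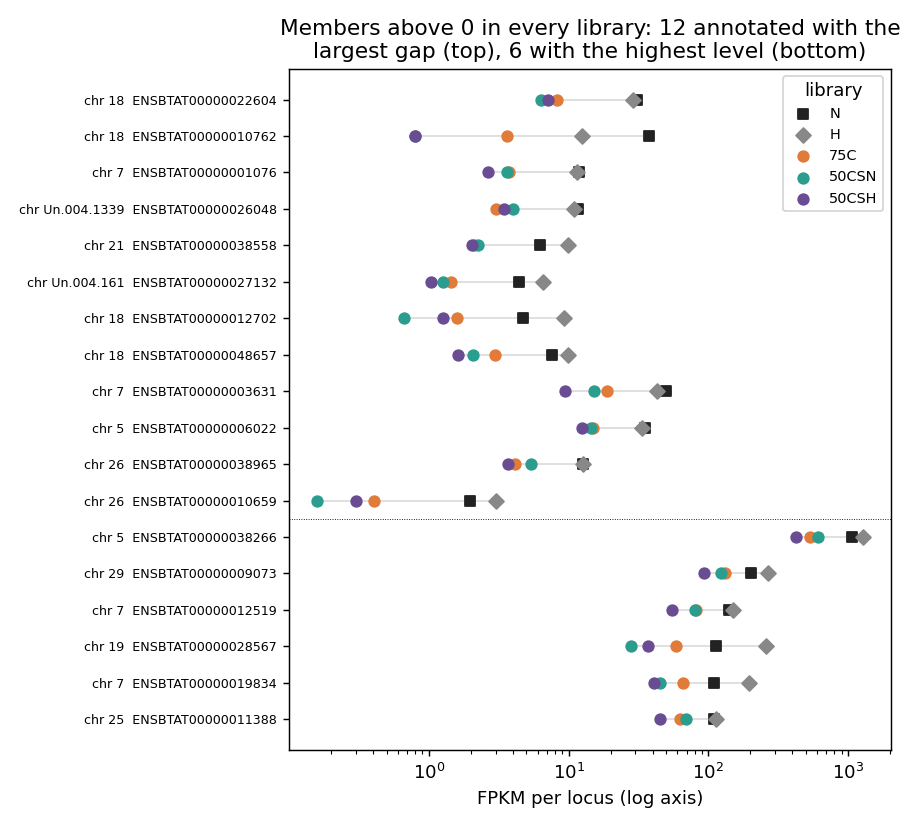
Level of each library in FPKM (log axis) at members above 0 in every library: the 12 annotated ones with the largest gap, above the dotted line, and the 6 with the highest mean, below it. At every locus the square and the diamond (N and H) lie to the right of the 3 circles (75C, 50CSN and 50CSH), as the rule requires. The highest member reaches 1286 FPKM (H).

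The most abundant member was the locus of ENSBTAT00000038266 on chromosome 5, from 48015303 to 48065411. It stood at 1076 (N) and 1286 (H), against 532 (75C), 609 (50CSN) and 427 FPKM (50CSH). Both of its transcripts were below both purebreds in every crossbred, at 445 (75C), 515 (50CSN) and 362 FPKM (50CSH) for the larger, against 852 (N) and 1059 FPKM (H). This locus shared its span with others, and the span sums were 5578 (N), 1796 (H), 843 (75C), 1362 (50CSN) and 977 FPKM (50CSH). Over the whole span the log2 gap was 0.40 in place of 0.82, below the 1.5-fold margin, and N stood far above H. The locus of ENSBTAT00000009073 on chromosome 29, from 42447431 to 42467941, was at 202 (N) and 269.996 FPKM (H), and at 92.9 to 133 FPKM in the crossbreds. The single-transcript locus of ENSBTAT00000012519 on chromosome 7, from 46668159 to 46703809, was at 139.7 (N), 150.1 (H), 82.3 (75C), 80.6 (50CSN) and 55.03 FPKM (50CSH). At these abundant loci the lowest purebred was under 2-fold above the highest crossbred. The locus of ENSBTAT00000028567 on chromosome 19, from 13849726 to 13863414, differed from them in the spread within groups, with 114 (N) and 260.5 (H), and 58.9 (75C), 27.8 (50CSN) and 37.1 FPKM (50CSH). The locus of ENSBTAT00000011388 on chromosome 25, from 27936823 to 27940671, was at 110.2 (N), 113 (H), 62.9 (75C), 69.1 (50CSN) and 45.3 FPKM (50CSH).

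An exact 0 in these tables can be a failed estimate, so members at 0 are described apart, although the authors' deposited tables give 0 member transcripts a failed status. At 17 members at least 1 crossbred was listed at 0, and 15 of these had a single transcript. The zero was in 75C at 15 of them, in 50CSH at 9 and in 50CSN at 7, and 5 members were listed at 0 in 75C alone. These numbers are not set against the zeros of all kept loci. The estimated depth relative to H was lowest in 75C, at 0.94, and its part in these zeros was not tested. The most abundant of the 17, named after its values were seen, was a locus of 134 nt without an Ensembl ID on unplaced sequence Un.004.34, from 168049 to 168182. It was at 304 (N), 191 (H), 72.9 (75C) and 82.6 FPKM (50CSH) and listed at 0 in 50CSN alone of the crosses. All 3 crossbreds were listed at 0 at 4 members. A locus without an Ensembl ID on chromosome 7, from 14291776 to 14292568, was at 4.19 (N) and 1.70 FPKM (H) and was alone in its span.

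The other 3 members at 0 in all crossbreds shared their span, the start and end given in the files, with other loci. On chromosome 12, from 14459918 to 14463902, ENSBTAT00000060235 was at 65.1 (N) and 44.1 FPKM (H). The other locus of that span, ENSBTAT00000013402, stood at 1590 (N), 1749.9 (H), 2335 (75C), 2614 (50CSN) and 2541 FPKM (50CSH). The crossbreds were thus below the purebreds at the first locus and above them at its partner, and the sum of the span was higher in every crossbred than in either purebred. On chromosome 19, from 8734352 to 8883076, ENSBTAT00000049221 was at 5.56 (N) and 6.71 FPKM (H), and the 14 loci of the span summed to 201 (N), 171 (H), 361 (75C), 437 (50CSN) and 467 FPKM (50CSH). On unplaced sequence Un.004.2, from 1668325 to 1810570, ENSBTAT00000059594 was at 21.0 (N) and 26.3 FPKM (H), and the span sum still had every crossbred below both purebreds by a log2 gap of 0.86.

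In all, 62 members shared their span with at least 1 other locus (31.6 percent, against 36.4 percent of kept loci). When the loci of a span were summed, 27 of the 62 still met the 1.5-fold margin and 48 still had every crossbred below both purebreds. With the 134 members alone in their span, 161 of 196 met the margin. How the authors' assignment of reads between loci of a span entered these values was not tested.

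**Figure D3:**
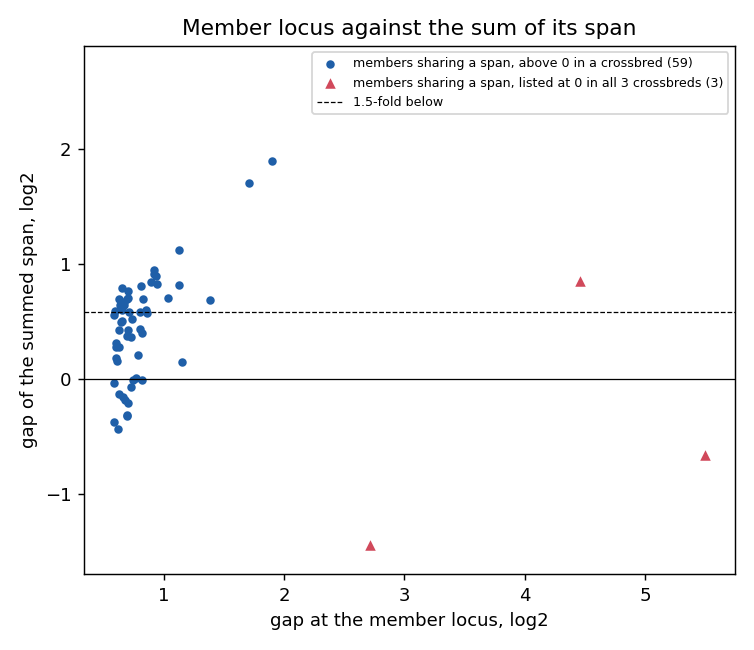
For the 62 members that share a span, the log2 gap at the member itself (horizontal axis) is set against the log2 gap of the summed FPKM of all loci in the span (vertical axis). 27 points lie on or above the dashed line at 1.5-fold, and the members at 0 in all crossbreds on chromosomes 12 and 19 (triangles) lie below 0.

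The rule does not fix the order of the libraries within the purebreds or within the crossbreds. N was above H at 94 members (48.0 percent) and below at 102, while N was above H at 53.3 percent of all kept loci. The median absolute log2 difference between N and H was 0.23, and at 119 members the purebreds were within 0.32 of each other on the log2 scale. The median log2 range over the 3 crossbreds was 0.44, which is not comparable with a difference between 2 libraries. 75C was the highest of the crossbreds at 111 members (56.6 percent) and 50CSH the lowest at 101 (51.5 percent). Loci with every crossbred below both purebreds by less than 1.5-fold had 75C highest in 61.7 percent and 50CSH lowest in 38.6 percent. Between the reciprocal crosses, 50CSN was above 50CSH at 121 members (61.7 percent), against 46.7 percent of all kept loci. The median log2 difference of 50CSH from 50CSN was -0.09 over the members and 0.02 over all kept loci. These shares come from 1 library of each population and carry no test.

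**Figure D4:**
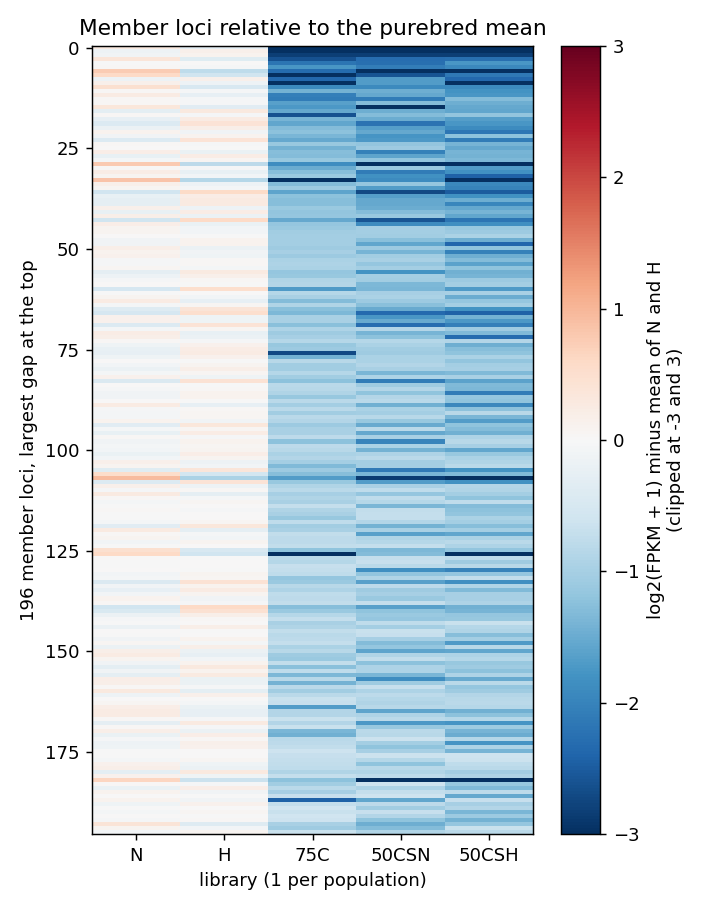
Rows are the 196 members ordered by gap, columns are the 5 libraries, and colour gives log2(FPKM + 1) minus the mean of N and H, clipped at -3 and 3. N and H stay near 0 at most loci, and the 3 crossbred columns are below 0 throughout, as the rule requires.

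Within-group differences of 2-fold were uncommon among the members, but most were more frequent than among all kept loci. H was at least 2-fold below N at 8 members (4.08 percent) and above at 4 (2.04 percent), against 1.86 percent and 1.46 percent of all kept loci. 50CSH and 50CSN were at least 2-fold apart, in either direction, at 6 members (3.06 percent, background 2.82 percent). 75C was at least 2-fold above 50CSN at 11 members (5.61 percent of members, background 2.22 percent) and above 50CSH also at 11 (background 2.54 percent). Against the purebreds, where the rule sets the direction, 75C was at least 2-fold below N at 93 members (background 2.62 percent) and below H at 94 (1.87 percent). The corresponding counts were 122 and 123 for 50CSN (4.04 percent and 3.66 percent) and 138 and 146 for 50CSH (4.24 percent and 4.17 percent). Among the crosses, 75C was at least 2-fold below 50CSN at 6 members (3.06 percent, background 1.36 percent) and below 50CSH at 4 (2.04 percent, background 1.07 percent).

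Among the 179 members above 0 in every library, the same 4 had both the largest difference between N and H and the largest difference between 75C and the 50 percent crosses. On chromosome 10, from 88959748 to 88965461, the locus of ENSBTAT00000005660 was at 172 (N), 56.4 (H), 26.2 (75C), 10.3 (50CSN) and 5.75 FPKM (50CSH). On chromosome 7, from 49142307 to 49146095, ENSBTAT00000013284 was at 54.8 (N), 14.0 (H), 8.06 (75C), 3.0 (50CSN) and 1.58 FPKM (50CSH). On chromosome 11, from 2564216 to 2571672, ENSBTAT00000027120 was at 133 (N), 54.3 (H), 35.5 (75C), 9.63 (50CSN) and 8.42 FPKM (50CSH). At the level of the locus these 3 ran from N down to 50CSH in the same order. The chromosome 11 locus shared its span, however, and the span sums were 306 (N), 178 (H), 115 (75C), 146 (50CSN) and 111 FPKM (50CSH). Summed in this way, 75C was below 50CSN and the log2 gap was 0.28 in place of 0.60, under the 1.5-fold margin. The fourth, ENSBTAT00000010762 on chromosome 18, from 52856391 to 52863158, was at 37.7 (N), 12.6 (H), 3.60 (75C), 0.792 (50CSN) and 0.80 FPKM (50CSH), so that the reciprocal crosses were level. At the first 3 the log2 difference between N and H was larger than the gap, and at the chromosome 18 locus it was -1.51 (H minus N) beside a gap of 1.56. A further rule, set after the values were seen, asked for 1.5-fold between N and H and between 75C and the higher 50 percent cross. With N as the higher purebred it gave the same 4 loci. With H as the higher purebred it gave 5 other members. Among them were ENSBTAT00000028567 on chromosome 19, described above, and ENSBTAT00000027080 on chromosome 28, from 44474579 to 44521474, at 18.6 (N), 41.9 (H), 8.64 (75C), 3.45 (50CSN) and 4.12 FPKM (50CSH).

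The lower level of a locus was shared among its transcripts at some loci and lay mainly in 1 transcript at others. Of 141 multi-transcript members, 93 had at least 2 transcripts with a mean of 1 FPKM or more, 261 such transcripts in all. In every crossbred 205 of the 261 were below both purebreds, 2 were above both, and 114 met the 1.5-fold margin by themselves. At 51 of the 93 loci each of these transcripts was below both purebreds, at 32 more than 1 met the 1.5-fold margin, at 46 exactly 1 did, and at 15 none of these transcripts met the margin that the locus sum met. The transcript with the largest difference held a median of 67.7 percent of the net difference of its locus, and at 28 members it held over 90 percent. The transcript with the highest level was the same in the purebred and the crossbred means at 115 of 141 members (81.6 percent), against 85.8 percent of the 10122 kept loci with several transcripts.

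The chromosome 18 locus of ENSBTAT00000022604 had the most transcripts, 17, none above 8.69 FPKM in any library. Of its 7 transcripts with a mean of 1 FPKM or more, 6 were below both purebreds in every crossbred and 0 were above both. Its deposited transcripts do not all have the same order, since 1 with the ID ENSBTAT00000052760 was at 4.24 (N) and 0.56 (H), against 2.04 FPKM (75C). Another transcript of that ID fell most, from a mean of 6.97 FPKM in the purebreds to 1.95 FPKM in the crossbreds. A locus with 15 transcripts on chromosome 11, from 4227841 to 4299468, was at 5.87 (N) and 5.22 FPKM (H), and at 1.98 to 2.24 FPKM in the crossbreds, while its transcript with the highest mean had no gap (log2 -0.39). On chromosome 11, from 7073151 to 7135801, another locus with 15 transcripts, all with the ID ENSBTAT00000006938 or none, was at 17.7 (N), 23.05 (H), 10.3 (75C), 9.51 (50CSN) and 10.8 FPKM (50CSH). Of its transcripts, 1 ran the other way, at 1.17 (N), 1.08 (H), 3.33 (75C), 1.36 (50CSN) and 2.50 FPKM (50CSH). At such loci the sum is the measurement on which the description rests.

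Members lay on all 30 chromosomes with kept nuclear loci, and 15 were on unplaced sequence. Chromosome 18 held 22 of them among 764 kept loci (2.88 percent), and chromosomes 22 and 26 had shares of 2.73 percent and 2.52 percent. By contrast chromosome 1 had 1 member among 514 loci, chromosome 6 had 1 among 346 and chromosome 23 had 1 among 447. The 4 mitochondrial loci held none. Placed loci were also put in 5 groups by how many annotated loci lay in the 1 Mb around each. The share of members was 1.00 percent in the group with a median of 6 annotated loci and 1.77 percent in the group with a median of 41. When the trend of each library with this number was removed, an alternative chosen after seeing the data, the rule gave 195 loci, 179 of them the same. The groups of loci are not independent, and the chromosomes were compared without a test.

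**Figure D5:**
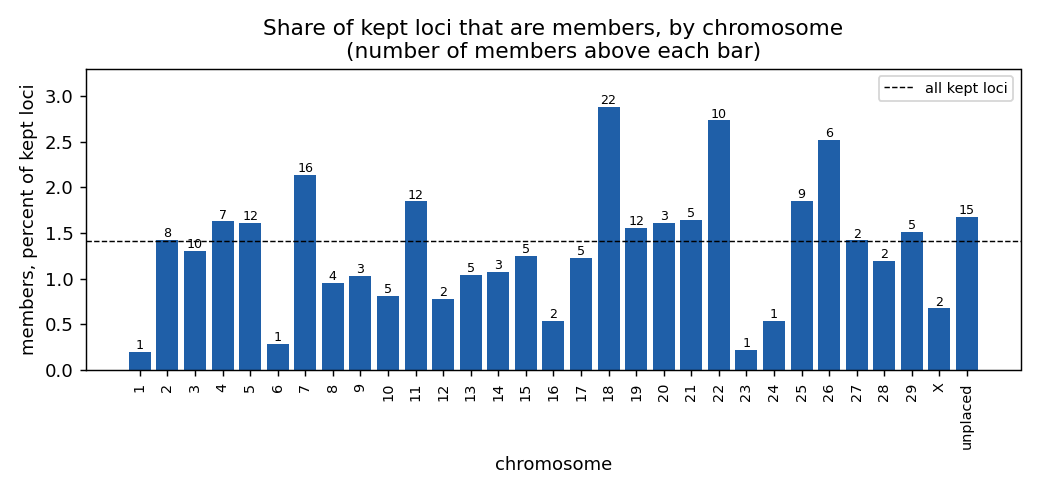
Bars give the percent of kept loci of each chromosome, and of unplaced sequence, that are members, with the number of members above each bar and the 1.41 percent of all kept loci as a dashed line. Chromosome 18 has the tallest bar, and chromosomes 1, 6 and 23 have 1 member each.

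Members within 1 Mb of the previous one formed 10 runs of at least 3, with 34 members in all. The longest lay on chromosome 18, from 60944910 to 63625283, with 7 members among 72 kept loci. When spans were summed, 4 of these 7 members no longer met the 1.5-fold margin, and in 1 of them the gap was reversed (log2 -0.43). Of the 65 other loci there, 21 had every crossbred below both purebreds and 4 above both, and the median log2 difference, crossbred minus purebred, was -0.30. In 2 further runs of chromosome 18, from 52367472 to 52977947 and from 56129667 to 57566804, the medians of the non-members were -0.13 and -0.26. With spans summed, 1 of the 3 members of each no longer met the margin, which left fewer than 3. In the second of these runs that member's gap was reversed (log2 -0.13). On chromosome 25, from 2004849 to 3045003, the 31 non-members had a median of -0.26, and 16 of them had every crossbred below. A run on chromosome 11, from 108289413 to 109351718, differed from these: its 7 non-members had a median of 0.12, with 3 lower and 4 higher in the crossbred mean, and none lay below or above both purebreds in every crossbred. With spans summed, 1 of its 3 members was under the margin, as was 1 of 3 in a run on chromosome 19, from 63264832 to 64083275. The median over all kept loci was -0.01, and the median of the non-members was lower than this in 7 runs and higher in 1.

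The most compact run lay on chromosome 19, from 19142243 to 19151697, where 3 single-transcript loci without an Ensembl ID followed each other within 9.46 kb and no other kept locus intervened. The first was at 3.61 (N), 4.66 (H) and 0.59 FPKM (50CSN) and listed at 0 in 75C and 50CSH. The second, from 19143632 to 19145023, was at 10.3 (N), 19.2 (H), 4.22 (75C), 3.60 (50CSN) and 2.53 FPKM (50CSH). The third was at 2.45 (N), 3.02 (H), 0.43 (75C), 0.09 (50CSN) and 0.59 FPKM (50CSH). H was the highest library at all 3, and the files do not say whether they are pieces of 1 transcript. Another set of 3 lay on unplaced sequence Un.004.161 between 153953 and 216674, where the members were also the only kept loci. That stretch was longer, at 62.7 kb, and 1 of its members had an Ensembl ID. On chromosome 22, from 52524873 to 52671531, 3 of 8 kept loci were members, among them ENSBTAT00000012101 at 58.9 (N), 52.4 (H), 27.9 (75C), 28.5 (50CSN) and 19.1 FPKM (50CSH).

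The authors compared the pooled crossbred with the pooled purebred populations per transcript, a contrast that the rule also used, so their calls describe the members and do not test them. The authors' deposited table marks 84 of 474 tested member transcripts as significant at a q-value of at most 0.05, all lower in crossbreds, at 79 of the 196 loci. Over all 37091 transcripts tested by the authors it marks 233 as lower (0.628 percent) and 114 as higher (0.307 percent), and member transcripts make up 36.1 percent of the lower calls. At ENSBTAT00000038266, the most abundant member, the authors' deposited table gives the larger transcript a log2 fold change of -0.94 from purebreds to crossbreds with a q-value of 0.016. For the main transcript of ENSBTAT00000028567 the authors' deposited table gives a log2 fold change of -2.11 with a q-value of 0.0093. The other 117 members had at least 1 tested transcript and no call. Of the 196 members, with 720 transcripts in all, 30 carried a call in at least 1 pair in the authors' deposited pairwise table. The matching share over all kept loci was not computed, so the 30 is a description only. Against N, that authors' deposited table calls 12 member transcripts in 75C (background 0.183 percent of tested transcripts), 20 in 50CSN (0.144 percent) and 21 in 50CSH (0.151 percent). Against H, the authors' deposited table calls 9 in 75C (0.0758 percent), 16 in 50CSN (0.157 percent) and 20 in 50CSH (0.176 percent). All of these calls were lower in the crossbred, the direction the rule selected. Between H and N, where 0.0796 percent of tested transcripts were called, the authors' deposited table calls 2 member transcripts, ENSBTAT00000010762 and ENSBTAT00000013284, both lower in H. Each pair sets 1 library against 1, so the pairwise calls have no replicate error behind them. ENSBTAT00000013284 was also the 1 member transcript that the authors' deposited table calls between 75C and 50CSH (background 0.0574 percent). Between 50CSH and 50CSN (0.0477 percent) and between 50CSN and 75C (0.0849 percent) the authors' deposited table calls 0 member transcripts.

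The margin cuts through a continuum. Just inside it were a locus on Un.004.161 from 155352 to 156690, at 3.21 (N), 3.74 FPKM (H) and 1.39 to 1.81 FPKM in the crossbreds, and ENSBTAT00000008335 on chromosome 18 from 38133163 to 38139406, at 113 (N), 66.1 FPKM (H) and 30.8 to 43.5 FPKM in the crossbreds. Just outside were ENSBTAT00000002967 on chromosome 15 from 64054676 to 64079586, at 42.9 (N), 68.6 FPKM (H) and 23.6 to 28.3 FPKM in the crossbreds, and ENSBTAT00000017268 on chromosome 17 from 47640357 to 47663710, at 27.8 (N), 31.1 FPKM (H) and 14.3 to 18.2 FPKM in the crossbreds. With a log2 margin of 0.32 in place of 1.5-fold the rule gave 597 loci.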

How the data were processed

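RNA of blood leukocytes was sequenced in 5 libraries, 1 per population. The authors deposited FPKM of 72812 transcripts, with Cuffdiff-type headers in both tables, per the file headers, made with TopHat2 2.0.9 and Cufflinks 2.2.1.0 per the submitters' processing notes. The deposited tables also hold a log2 fold change, a test score, and a p-value and q-value per transcript, quoted as the authors' own. Build, annotation and settings: not given in the sources used here. FPKM of a library was identical in all pairs and was summed per locus. Loci were kept at a mean of 1 FPKM or more, and the pseudocount was 1. Starts are counted from 1. Read totals are not given, and low values of single-transcript loci put the depth relative to H at 1.19 (N), 0.94 (75C), 1.16 (50CSN) and 1.02 (50CSH). No counting error can be given. The FPKM that the authors pooled over populations were not used.

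No test was run, because each population has 1 library and the rule used every value. Members and lists were chosen with earlier results of these data known. Named loci were the 12 annotated members with the largest gap, those at 0 in all crossbreds, the 6 with most transcripts, the 6 most abundant, those nearest the threshold, runs of at least 3 within 1 Mb, loci called by the authors, and the 4 with the largest differences within each kind of population, named in part; the largest-gap, abundance and difference rules took only members above 0 in every library. The code of the rule was run on simulated data with planted drops, and the noise was set below the spread of each locus over the 5 libraries. That run checks the code and gives no error rate for the members. Alternatives were the pseudocount, level filter, scaling, margin, unit of summing and leaving out a library. Python 3.11.15, pandas 2.3.3, numpy 2.4.6, statsmodels 0.14.6 and matplotlib 3.10.9 were used.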

Additional observations from a re-analysis of the deposited data

How the results depend on the processing

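The number of loci below both purebreds was 196 as reported and stayed within 1.5 times under median-of-ratios scaling (203), quantile normalization (175), no filter on low values (214), sums over overlapping spans (166) and loci above 0 only (179). It moved to 298 with a pseudocount of 0.1, 122 with a mean of at least 5 FPKM, 40 at 2-fold, 597 at a log2 margin of 0.32 and 474 counted per transcript. With 1 library left out it ran from 228 to 580, and it was 459 without N, 493 without H and 580 without 75C. A rule over fewer libraries is easier to meet. For loci above both purebreds the count of 44 became 76, 4, 315 and 246 with the pseudocount of 0.1, at 2-fold, at a log2 margin of 0.32 and per transcript, and 92 to 222 with a library left out. In these settings the lower side held more loci than the upper side throughout.

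With the pseudocount of 0.1, the mean of 5 FPKM, 2-fold, a log2 margin of 0.32 and transcripts in that order, members above 0 in every library numbered 279, 116, 28, 578 and 395, and 206 to 557 with a library left out. Members with N above H numbered 142, 60, 24, 288 and 243, and 109 to 291. Members with 75C highest of the crossbreds numbered 182, 79, 20, 366 and 250, and 139 to 277. The median log2 difference was -1.29 with the pseudocount of 0.1, -1.76 at 2-fold, -0.81 at a log2 margin of 0.32 and -1.32 per transcript, and -1.10 to -1.04 with a library left out.

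Of 759 recomputed gaps at the 69 named loci, 635 moved by no more than the spread between libraries within the purebreds and within the crossbreds, 116 moved by more and 8 reversed, at 8 loci. The reversals came from summed spans (6) and from the transcript with the highest mean (2). Leaving out a library can only keep or widen a gap, so those settings could give no reversal. Of the 69 loci, 24 moved with the pseudocount of 0.1, 24 without N, 20 without 75C, 13 without H, 14 in the transcript with the highest mean and 6 when spans were summed. When spans were summed the log2 gap became -0.66 on chromosome 12 (14459918), -1.44 on chromosome 19 (8734352), -0.033 on Un.004.2011 (5195), -0.37 on chromosome 14 (852902), -0.13 on chromosome 18 (56129667) and -0.43 on chromosome 18 (62485174). In the transcript with the highest mean it became -0.39 on chromosome 11 (4227841) and -0.056 on chromosome 25 (35336476). No paired analysis was possible because each population has 1 library and the labels carry no replicate numbers.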
